A study of Homo sapiens with 30 samples.

Results

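Transcripts of 9 genes of the smooth muscle and contractile actin programme were followed in sorted cells of MDA-MB-231, a human breast cancer cell line: ACTG2, ACTA2, TAGLN, CNN1, MYL9, TPM1, TPM2, CALD1 and XIRP2. They were chosen by name on expression values of both experiments below that were already known, among them the higher XIRP2 level in liver metastases than in tumours of subclone 2, and adjusted p-values here are therefore no independent support for the choice. All 9 were found in both deposited count tables, among 38526 genes of the first experiment and 36291 of the second. The line is triple-negative, and its cells carried LeGO vector barcodes that mark the progeny of single cells. Subclones 2 and 13 were each sorted from the primary tumour and from metastases in lung and liver of 3 mice, numbered 1 to 3, which gave 6 groups of 3 samples, 1 per mouse. A second experiment held retransplanted subclone 2 cells sorted from lung or liver metastases of mice 4, 5 and 6, and it is not clear from the labels if the named organ gave the transplanted cells or is where they grew. All hosts of the first experiment were NOD-SCID-IL2Rγc−/− (NSG) mice, which lack functional T, B and natural killer cells, so no group had an adaptive immune system. The labels name no treatment or age, and each subclone is 1 clone of 1 line, so a difference between them is a difference between those clones.

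Smooth muscle contracts when myosin pulls on thin filaments of actin, and much the same machinery forms stress fibres in fibroblasts and in migrating tumour cells. ACTG2 and ACTA2 encode the smooth muscle gamma and alpha actins, while ACTB and ACTG1 encode the cytoplasmic actins of every cell. Tropomyosins (TPM1, TPM2), caldesmon (CALD1), calponin (CNN1) and transgelin (TAGLN, also called SM22-alpha) bind along actin, MYL9 is a regulatory light chain of myosin, and XIRP2 is a Xin repeat protein that binds actin filaments in striated muscle. Many of these genes are classical targets of serum response factor (SRF), which binds the CArG box, together with its actin-sensing cofactors of the MRTF family.

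The promoters of the members whose levels separated groups are shown because SRF sites are the usual entry point for reading such genes. The sequences are from RefSeq on GRCh38.p14 and run 5′ to 3′ from 250 bases before to 50 bases after the annotated start, with capitals marking CArG boxes (CC, any 6 bases of A or T, then GG). ACTG2 lies at chr2:73892758-73893057 on the plus strand, and XIRP2, with 2 annotated starts, at chr2:166888230-166888529 and chr2:167187122-167187421, also on the plus strand.
ACTG2: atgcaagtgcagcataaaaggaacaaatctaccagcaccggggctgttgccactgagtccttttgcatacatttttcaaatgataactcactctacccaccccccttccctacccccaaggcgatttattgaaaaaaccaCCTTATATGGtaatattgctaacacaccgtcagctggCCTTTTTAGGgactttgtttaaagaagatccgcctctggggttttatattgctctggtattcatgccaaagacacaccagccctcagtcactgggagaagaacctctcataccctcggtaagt
XIRP2, first start: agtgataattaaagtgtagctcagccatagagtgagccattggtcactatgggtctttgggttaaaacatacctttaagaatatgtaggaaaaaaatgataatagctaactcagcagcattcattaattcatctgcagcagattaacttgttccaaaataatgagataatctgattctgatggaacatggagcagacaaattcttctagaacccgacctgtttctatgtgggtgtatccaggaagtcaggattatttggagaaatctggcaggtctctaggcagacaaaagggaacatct
XIRP2, second start: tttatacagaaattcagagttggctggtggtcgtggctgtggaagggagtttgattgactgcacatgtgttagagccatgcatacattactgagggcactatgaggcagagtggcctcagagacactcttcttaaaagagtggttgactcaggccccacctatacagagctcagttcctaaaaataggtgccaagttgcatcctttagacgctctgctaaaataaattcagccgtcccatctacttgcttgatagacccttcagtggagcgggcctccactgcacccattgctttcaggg
The ACTG2 window held 2 such boxes, CCTTATATGG starting 110 bases and CCTTTTTAGG starting 73 bases before the start. A CArG box on either strand was found in 454 of 35116 promoters of the same length, or 1.293%. No exact match was found in the windows of XIRP2, ACTA2, CNN1, TPM1, TPM2 or CALD1, and the windows of TAGLN and MYL9 were not analysed here. An ACTA2 window held ccctatatgg and ccttgtttgg, each off the pattern by a single base. Such near matches were not searched for in the other windows, so the lack of an exact match does not show that a gene has no SRF site. The TATA-like motif TATAAA, which 11.53% of promoters held on either strand, began 31 bases before the ACTG2 start on the minus strand. The TEAD motif CATTCC, held by 14.03% of promoters, matched in ACTA2 and CALD1 windows and in no ACTG2 or XIRP2 window. These matches describe letters in a window, and binding was not measured.

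In GENCODE v29 (GRCh38) ACTG2 (ENSG00000163017 in the tables) spans chr2:73892314-73919865 and XIRP2 (ENSG00000163092) chr2:166888487-167259753, far apart on the same chromosome. ACTA2 (ENSG00000107796) lies at chr10:88935074-88991339, TAGLN (ENSG00000149591) at chr11:117199321-117204782, CNN1 (ENSG00000130176) at chr19:11538717-11550323, MYL9 (ENSG00000101335) at chr20:36541484-36551447, TPM1 (ENSG00000140416) at chr15:63042632-63071915, TPM2 (ENSG00000198467) at chr9:35681992-35690121 and CALD1 (ENSG00000122786) at chr7:134744252-134970728. The library kit did not keep the strand, so counts of ACTA2 (17.3% of its exonic bases overlap ACTA2-AS1 and 12.8% overlap FAS), TAGLN (11.4% overlap PCSK7) and TPM1 (16.1% overlap TPM1-AS) may hold reads of the gene on the other strand. The coding sequences of ACTG2 and ACTA2 were 84.4% identical, yet in the transcripts compared neither shared a 50-base stretch with another actin gene.

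The depth was 11.8 to 82.2 M (mega) counted reads per sample in the first experiment, and the retransplanted samples held 23.4 to 32.3 M. Levels below are CPM, the read counts scaled to library size with TMM, with the samples of a group listed in the order of mice 1, 2 and 3. The 6 samples of mouse 1 stood apart from the other 12 on the first principal component (32% of the variance), with scores of -32.7 and below against 8.60 and above, and each mouse had its own sequencing run apart from part of the subclone 13 libraries of mouse 1. The line's mesenchymal marker VIM was at 2429 to 10087 CPM, and of 4 epithelial and receptor markers that are usually low in the line, ESR1 reached at most 1.89, PGR 0.262 and CDH1 4.70 CPM, while EPCAM was at 10.4 to 58.2 CPM. Among the markers that define smooth muscle, MYH11 was at 0.441 to 3.39 CPM, DES at most 0.931, LMOD1 at most 1.64 and PLN at most 0.390 in any sample. Of the hepatocyte list ALB was at most 0.787 CPM, while SERPINA1 reached 219 and APOA1 24.5 CPM. Of the fibroblast list DCN was at most 0.390 CPM, while COL1A1 was at 7.63 to 113 CPM and COL3A1 reached 21.5 CPM. These are human genes, and whether reads of the mouse hosts were separated is not given in the sources used here.

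**Figure D1:**
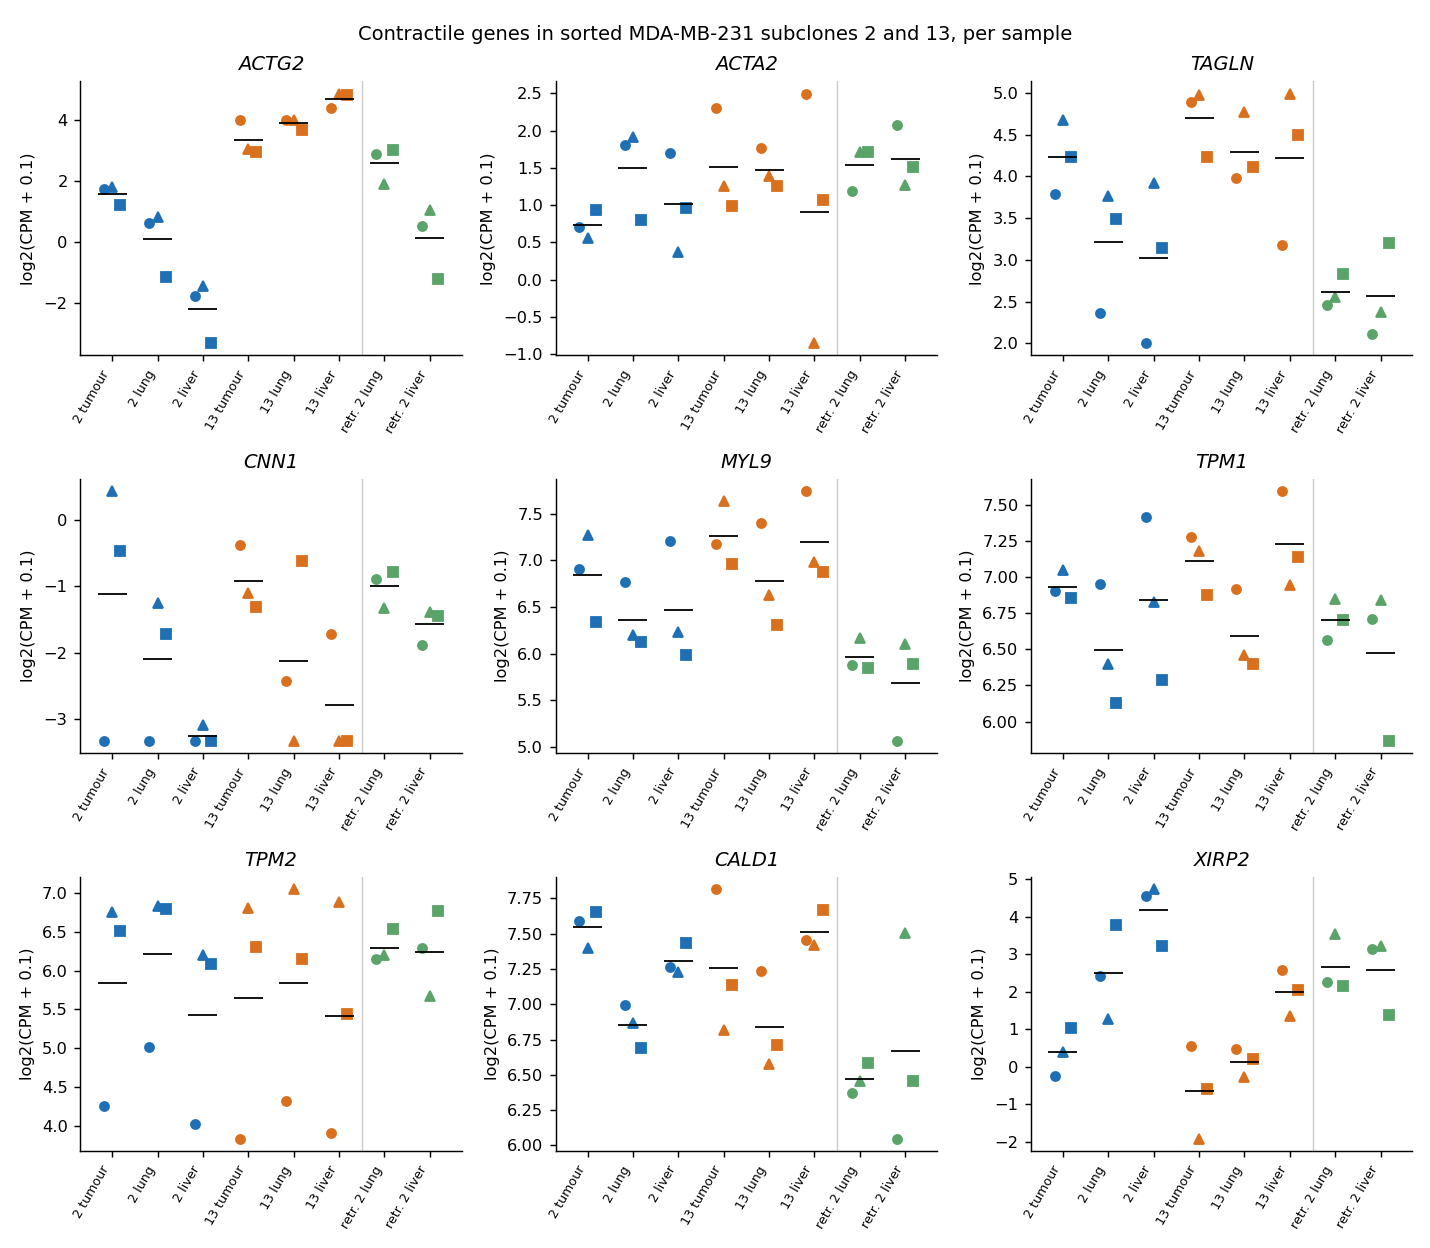
Level of each member per sample as log2(CPM + 0.1), by group of subclone (2 or 13) and organ, with retransplanted samples right of the grey line; circles, squares and triangles are mice 1, 2 and 3 (or 4, 5 and 6) and black lines are group means. In the first experiment ACTG2 separates the subclones in every organ and XIRP2 in lung and liver, while the low TPM2 circles are the 6 samples of mouse 1.

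In the first experiment ACTG2 separated the subclones in every organ, and the liver was its lowest organ in subclone 2 and its highest in subclone 13. In subclone 2 it was at 3.19, 2.19 and 3.39 CPM in the tumours, at 1.42, 0.353 and 1.67 CPM in the lung and at 0.189, 0 and 0.262 CPM in the liver. The order tumour, lung, liver held in each of the 3 mice, and no 2 of these groups overlapped. The liver values rest on 3, 0 and 15 reads, and the 0 of mouse 2 allows up to 0.0417 CPM (3 counts, counting error only). In subclone 13 ACTG2 was at 15.9, 7.61 and 8.07 CPM in the tumours, at 15.8, 12.6 and 15.7 CPM in the lung and at 20.6, 27.7 and 28.9 CPM in the liver. Here the liver held the highest values, with all 3 samples above every other sample of the experiment. In this experiment the lowest subclone 13 sample (7.61 CPM) was above the highest of subclone 2 (3.39 CPM). Retransplanted subclone 2 samples labelled lung reached 7.93 CPM. Less RNA per cell and fewer cells with the transcript cannot be told apart in such bulk samples.

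Within subclone 2, ACTG2 fell from tumour to liver by 4.41 ± 0.78 on the log2 scale (± SE, n = 3 mice per group, 21.2-fold), with an adjusted p of 0.0194 in edgeR's quasi-likelihood test over 17418 genes. With mouse as a term it fell by 4.50 ± 0.64 (edgeR adjusted p = 0.000591). In that comparison 0.287% of all genes tested were called (1.68% with mouse as a term), and of the 8 members other than XIRP2, whose value here was used in the choice, ACTG2 was the 1 called. Whether values of ACTG2 entered the choice as well is not known, so its calls here and below are no independent support. Leaving out each of the 6 samples in turn gave -5.99 to -3.61. The call did not hold without the liver sample of mouse 1 or without the tumour sample of mouse 3, the highest edgeR adjusted p being 0.0644, nor in a fit of these 6 samples alone (adjusted p = 0.772). Without mouse 1 the difference was -4.53 (edgeR adjusted p = 0.0341). Stromal markers differed between the same samples. The fibroblast list summed to 7.63 to 25.8 CPM in the liver and 35.2 to 115 CPM in the tumours, nearly all of it COL1A1, and PDGFRB was at 5.51 to 15.5 against 23.2 to 27.8 CPM. In edgeR 0 of 3 fibroblast, 0 of 7 pericyte and 0 of 3 endothelium genes tested were called. Of the 7 pericyte genes 5 had lower and 2 had higher estimates in the liver. With mouse as a term COL1A1 (-2.22 ± 0.49, edgeR adjusted p = 0.022) and PDGFRB (-1.34 ± 0.32, adjusted p = 0.0347) were lower. DCN was at most 0.210 CPM in these groups and THY1 at 0, and the part of these markers in the ACTG2 change was not tested. The lung values were lower than the tumour values by 1.41 ± 0.67 and were not called (edgeR adjusted p = 0.538). Lung exceeded liver by 3.0 ± 0.79, which passed with mouse as a term only (edgeR adjusted p = 0.21 without and 0.0226 with it). In subclone 13 the liver values exceeded those of the tumour by 1.32 ± 0.62 and were not called (edgeR adjusted p = 0.81, and 0.187 with mouse as a term).

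Between the subclones, ACTG2 was higher in subclone 13 in the liver by 7.54 ± 0.85 on the log2 scale (186-fold, group means ± SD of 25.8 ± 4.49 against 0.150 ± 0.135 CPM over 3 mice), and edgeR's adjusted p was 0.000532 (4.36e-06 with mouse as a term). Leaving out each of the 6 samples in turn kept the call 6 times, with differences of 6.75 to 9.12, and it was 7.86 without mouse 1 (edgeR adjusted p = 0.00138), but a fit of these 6 samples alone did not pass (0.0643). In the lung the difference was 3.74 ± 0.71 (13.3-fold, edgeR adjusted p = 0.0313, and 0.00121 with mouse as a term). This call was lost whichever of the 6 lung samples was left out, with edgeR adjusted p of 0.0633 to 0.195, in a fit of these 6 samples alone (0.0806) and without mouse 1 (0.0512). In the tumours the groups did not overlap but the difference of 1.81 ± 0.64 was not called (edgeR adjusted p = 0.818, and 0.14 with mouse as a term). All genes were called at 0.109% in tumour, 0.184% in lung (1.54% with mouse as a term) and 0.247% in liver (1.5% with mouse as a term), and of the 9 members 0, 1 and 1 were. In the tumours ACTG2 was the 1 member with an unadjusted edgeR p under 0.05, and 0 members passed in DESeq2, where 0.51% of all genes did.

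The liver-minus-tumour change of ACTG2 itself differed between the subclones by 5.73 ± 0.99 on the log2 scale. Within mice the change was -3.51, -4.52 and -3.27 in subclone 2 and 0.37, 1.85 and 1.83 in subclone 13, so the liver was lower in all 3 mice for the first clone and higher in all 3 for the other. The edgeR test of that difference gave an adjusted p of 0.331 without a mouse term, where 0% of genes were called. It was 6.40 without mouse 1 (edgeR adjusted p = 0.222), and 4.94 to 7.31 with each of the 12 samples left out in turn, called in 0 of the 12 fits. With mouse as a term it was 5.90 ± 0.80 with an edgeR adjusted p of 0.00861, and ACTG2 was the only gene called of 17418 (0.00574%). The tests of the differences between the subclones were added after the data had been seen.

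Of 7 pericyte and smooth muscle markers tested between the livers of the subclones 1 was called, beside 0.247% of all genes. The summed level of a list of 10 pericyte and smooth muscle genes that are not members, 9 of them in this table, was 95.6 to 209 CPM in the subclone 13 liver and 62.7 to 93.6 CPM in the subclone 2 liver. Most of it came from CSPG4, MCAM and PDGFRB. CSPG4 overlapped (25.4 to 151 against 32.5 to 62.9 CPM), and the gene called was MCAM, a cell adhesion receptor that tumour cells also carry, which was higher in subclone 13 by 1.97 ± 0.34 (edgeR adjusted p = 0.0199). The muscle-defining genes of that list stayed low in the same samples, with MYH11 at 1.15 to 2.43 CPM in the subclone 13 liver and 0.441 to 1.48 in the subclone 2 liver, DES at most 0.175 in both and PLN at 0 in both. Of the hepatocyte list 2 genes were tested and 1 was called, SERPINA1, at 167 to 203 CPM in the subclone 13 liver and 25.0 to 56.3 CPM in the subclone 2 liver (1.99 ± 0.34, edgeR adjusted p = 0.0199). In the tumours SERPINA1 was at 139 to 219 against 59.1 to 67.5 CPM, and ALB was at most 0.304 CPM in both livers. In the lung 0 of the 7 pericyte and smooth muscle markers and 1 of 2 hepatocyte genes were called, APOA1, at 8.57 to 10.9 against 0.0797 to 0.236 CPM (edgeR adjusted p = 0.015). With mouse as a term 1 of the 7 was higher in the subclone 13 lung, beside 1.54% of all genes. The summed pericyte and smooth muscle list was at 120 to 126 CPM in the subclone 13 lung and 58.8 to 69.2 CPM in the subclone 2 lung. In the tumours it was at 122 to 150 against 76.8 to 104 CPM, also without overlap. The part of these markers in the ACTG2 difference was not tested.

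**Figure D2:**
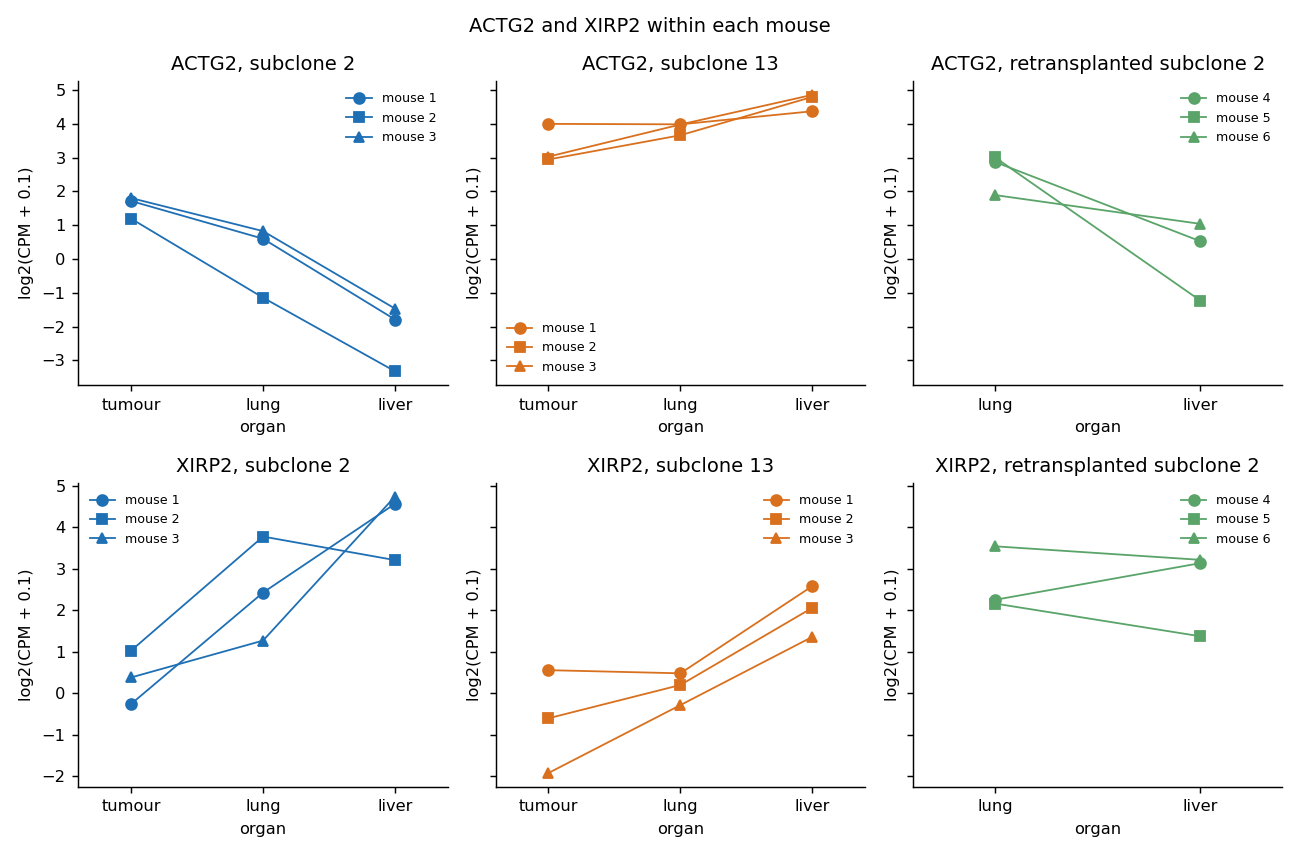
ACTG2 (top) and XIRP2 (bottom) as log2(CPM + 0.1) in tumour, lung and liver, with 1 line per mouse, for subclone 2, subclone 13 and the retransplanted subclone 2 cells. ACTG2 descends to the liver in each subclone 2 mouse and is highest in the liver of each subclone 13 mouse, while XIRP2 is higher in liver than in tumour in all 6 pairs.

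XIRP2 was higher in liver than in tumour in both subclones. In subclone 2 it was at 0.736, 1.94 and 1.20 CPM in the tumours, at 5.27, 13.6 and 2.31 CPM in the lung and at 23.6, 9.15 and 26.6 CPM in the liver. Every metastasis sample was above every tumour sample, while lung and liver overlapped because mouse 2 had more in the lung. The tumour-to-liver difference in this subclone was among the results known when the genes were proposed, so it is given as a description only, 3.94 ± 0.73 on the log2 scale (15.3-fold). Without mouse 1 it was 3.51, and the XIRP2 differences tested below all missed the threshold in the edgeR fit that left that mouse out, which has fewer samples and no mouse term. The lung exceeded the tumour by 2.48 ± 0.69, which passed with mouse as a term (2.33 ± 0.61, edgeR adjusted p = 0.0423) and not without it (0.157). That test reused the tumour values that entered the choice of XIRP2, so its p-values are no independent support.

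In subclone 13 XIRP2 was at 1.37, 0.558 and 0.164 CPM in the tumours, at 1.29, 1.05 and 0.720 CPM in the lung and at 5.89, 4.07 and 2.47 CPM in the liver. The liver samples were above all others of the subclone, while tumour and lung overlapped. The excess of liver over tumour was 2.56 ± 0.70 (5.89-fold), with an edgeR adjusted p of 0.183 without and 0.0349 with mouse as a term. Lung and tumour differed by 0.56 (95% interval -0.89 to 2.01). Compared with subclone 2, subclone 13 held less XIRP2 in lung and liver, with no overlap. The differences were -2.80 ± 0.70 in lung and -2.25 ± 0.67 in liver (edgeR adjusted p = 0.145 and 0.252 without, 0.0329 and 0.0434 with mouse as a term). The liver test reused the subclone 2 liver values that entered the choice of XIRP2, so its p-values are no independent support. In the tumours the subclones overlapped (-0.88, 95% interval -2.33 to 0.58). The liver-minus-tumour changes of the subclones were not shown to differ (-1.38 ± 0.95, edgeR adjusted p = 1 with and without a mouse term). The summed level of 8 skeletal and heart muscle genes, at 2.77 to 29.2 CPM in the subclone 2 liver and 6.93 to 26.1 CPM in its tumours, overlapped, and CKM, of skeletal and heart muscle, was at most 0.188 CPM in these groups.

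ACTA2 was a low transcript in these cells, at 0.454 to 5.55 CPM over the first experiment. Its widest group was the subclone 13 liver, with 5.55, 2.00 and 0.454 CPM, and the tumours of subclone 13 (4.83, 1.88 and 2.29 CPM) lay above those of subclone 2 (1.53, 1.81 and 1.37 CPM) without overlap. That difference of 0.90 ± 0.68 was not called (edgeR adjusted p = 1). In the liver, where the other smooth muscle actin differed most, ACTA2 differed between the subclones by 0.39 (95% interval -1.02 to 1.79).

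TAGLN, an early marker of smooth muscle cells, was not called in any comparison of organs or subclones. In subclone 2 it was at 13.7, 18.7 and 25.5 CPM in the tumours, at 5.04, 11.2 and 13.5 CPM in the lung and at 3.91, 8.72 and 15.0 CPM in the liver. Each mouse had less in both metastases than in its tumour. In subclone 13 the values were 29.6, 18.8 and 31.4 CPM in the tumours, 15.7, 17.3 and 27.2 CPM in the lung and 8.94, 22.4 and 31.8 CPM in the liver. Subclone 13 was above subclone 2 in the lung without overlap (1.0 ± 0.49, edgeR adjusted p = 0.746) and above it in the liver of each mouse (1.19 ± 0.49, adjusted p = 0.56). With mouse as a term these differences came close to the threshold without passing it (edgeR adjusted p = 0.104 and 0.0567).

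CNN1, the calponin of differentiated smooth muscle, was barely detected. It was at 0, 0.625 and 1.25 CPM in the subclone 2 tumours and at 0, 0 and 0.0175 CPM, a single read in all, in the subclone 2 liver. In subclone 13 the tumours were at 0.674, 0.304 and 0.369 CPM and the livers at 0.206, 0 and 0 CPM, without overlap. Each 0 allows up to 0.0417 to 0.227 CPM at the depth of its sample (3 counts), so most lung and liver values are not distinguishable from one another at this depth. No difference of CNN1 was called.

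MYL9, TPM1 and CALD1 formed an abundant and even part of the group. MYL9 ranged from 63.1 to 214 CPM, TPM1 from 69.7 to 193 CPM and CALD1 from 95.5 to 225 CPM over the 18 samples. For all 3, and in both subclones, the lung had the lowest group mean. CALD1 was at 127, 103 and 116 CPM in the subclone 2 lung against 193, 201 and 169 CPM in its tumours and 154, 173 and 150 CPM in its liver, with no overlap of the lung with either. In subclone 13 it was at 150, 104 and 95.5 CPM in the lung against 175, 203 and 171 CPM in the liver, again without overlap. TPM1 was at 121, 84.4 and 88.2 CPM in the subclone 13 lung and at 193, 141 and 123 CPM in its liver, also without overlap.

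None of these lung differences was called. CALD1 was lower in lung than in tumour by 0.67 ± 0.24 in subclone 2 (edgeR adjusted p = 0.322, and 0.0638 with mouse as a term), and in subclone 13 lower in lung than in liver by 0.65 ± 0.24 (adjusted p = 0.919). TPM1 was lower in lung than in liver by 0.64 ± 0.28 in subclone 13 (edgeR adjusted p = 1). For MYL9 the largest difference between organs was -0.47 ± 0.36, for lung against tumour in subclone 2 (edgeR adjusted p = 0.784). Between the subclones, in tumour, lung and liver in turn, MYL9 differed by 0.36, 0.43 and 0.67, TPM1 by 0.15, 0.05 and 0.33 and CALD1 by -0.27, -0.01 and 0.20 on the log2 scale, none of them called and all overlapping.

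Counted over the 9 members, edgeR called 0 in lung against tumour of subclone 2 (2 with an unadjusted p under 0.05, and 1 call by DESeq2), and all genes were called at 0.436% (3.05% with mouse as a term, when 1 member, XIRP2, passed). In subclone 13 lung against tumour edgeR and DESeq2 each called 0 members and 0 were below an unadjusted 0.05, with 0.419% of all genes called (2.89% with mouse as a term). In subclone 13 liver against tumour edgeR called 0 (2 below an unadjusted 0.05, and 1 call by DESeq2), beside 0.385% of all genes (1.83% and 1 member, XIRP2, with mouse as a term). Lung against liver gave 0 edgeR calls in subclone 2 (0.023% of genes called, and 2.95% and 1 member with mouse as a term), with 3 members below an unadjusted 0.05 and 1 call by DESeq2. In subclone 13 it also gave 0 edgeR calls, with 3 unadjusted p under 0.05, 0 DESeq2 calls and 0% of all genes called by edgeR. The shares above are those of edgeR. DESeq2 called 1.61% of all genes in subclone 2 lung against tumour, and 1.95% and 1.44% in subclone 13 lung and liver against tumour. In lung against liver it called 1.2% in subclone 2 and 0.291% in subclone 13. Lung and liver were compared with the same tumour samples, so these counts share their controls. The member medians lay between -0.47 and 0.39 on the log2 scale and the medians of all genes between -0.00 and 0.05.

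**Figure D3:**
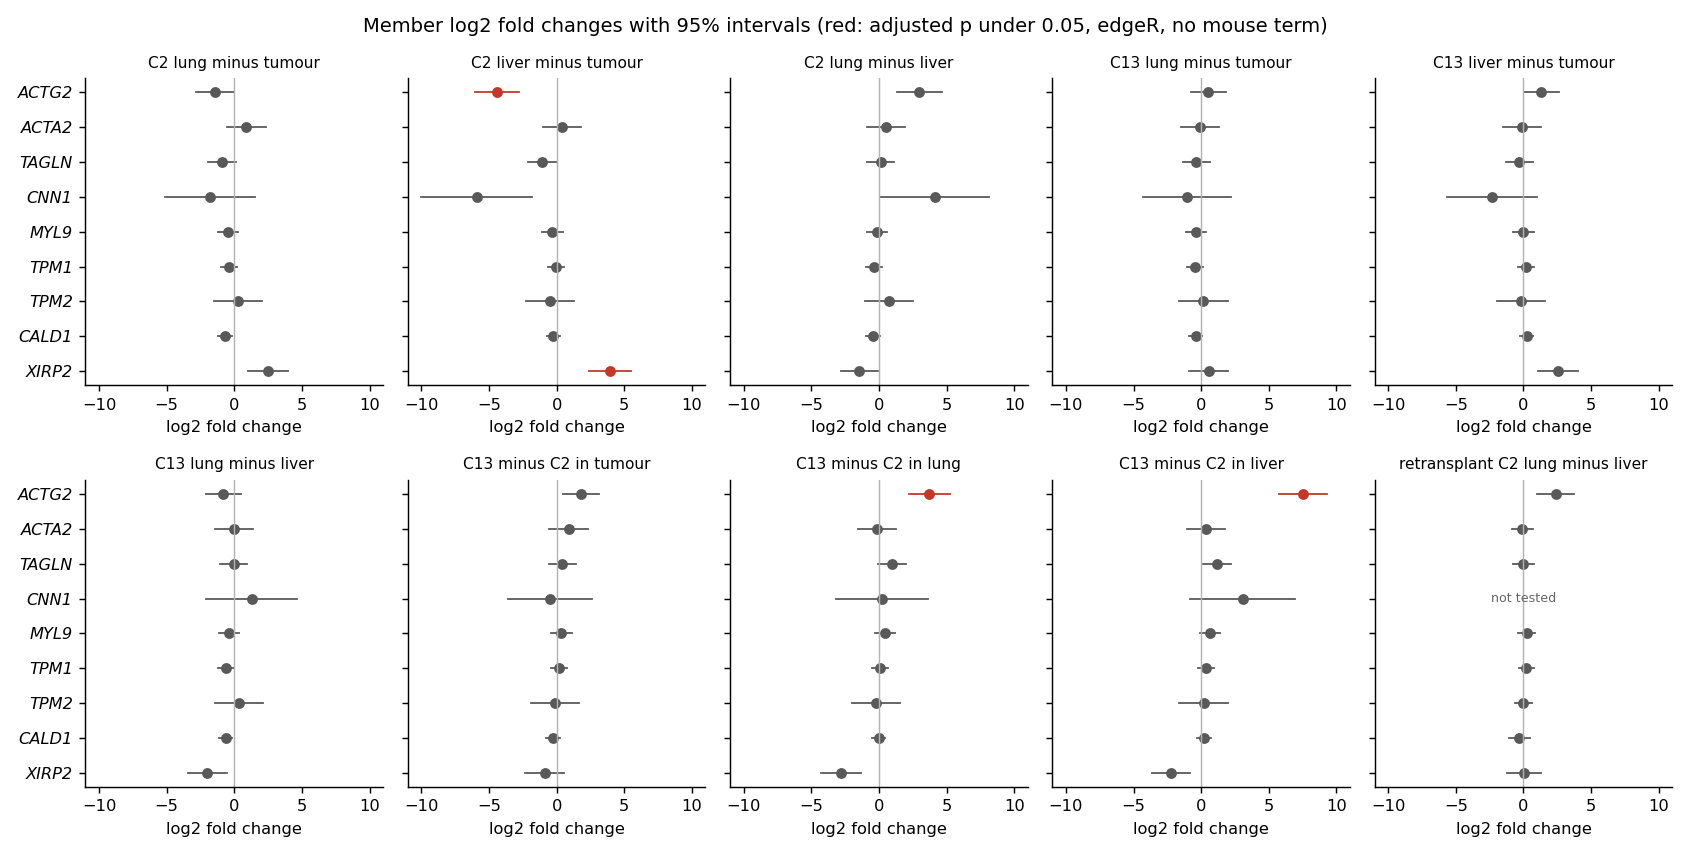
Log2 fold change of each member with its 95% interval in 9 comparisons of the first experiment and in the retransplanted samples, where CNN1 was not tested; C2 and C13 are subclones 2 and 13. The 4 red points, with an edgeR adjusted p under 0.05, all belong to ACTG2 or XIRP2, and that of XIRP2 is a description.

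TPM2 separated mouse 1 from mice 2 and 3, while no comparison of organs or subclones called it. In subclone 2 it was at 18.9, 91.4 and 108 CPM in the tumours, at 32.1, 111 and 114 CPM in the lung and at 16.1, 67.6 and 73.3 CPM in the liver. In subclone 13 it was at 14.2, 79.1 and 112 CPM, at 19.8, 70.7 and 132 CPM and at 14.9, 43.5 and 119 CPM in the same organs. The first value, of mouse 1, was the lowest of each group, and the 6 samples of mouse 1 (14.2 to 32.1 CPM) did not overlap the 12 of mice 2 and 3 (43.5 to 132 CPM). The fitted difference was -2.30 ± 0.17 (edgeR adjusted p = 1.84e-08), in a comparison added after the data had been seen that called 42% of all genes. The subclone 13 cells of mouse 1 were also sequenced in runs 2 and 3, and there TPM2 was at 13.2 to 16.6 and 12.4 to 17.7 CPM, while libraries of mice 2 and 3 from the same runs held 43.4 to 117 and 80.8 to 137 CPM. The low level was therefore present in all 3 runs.

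Other members differed less between mouse 1 and mice 2 and 3, and not all in the same direction. ACTG2 (0.33 ± 0.32, edgeR adjusted p = 0.43) and XIRP2 (0.41 ± 0.37, adjusted p = 0.386) were not called in that comparison. CALD1 (0.25 ± 0.12, adjusted p = 0.0868) and CNN1 (-0.52 ± 1.20, adjusted p = 0.749) were not called by edgeR either. TAGLN was lower in mouse 1 by a log2 difference of -0.83 ± 0.20 (edgeR adjusted p = 0.00268). ACTA2 was higher by 0.91 ± 0.34, MYL9 by 0.57 ± 0.14 and TPM1 by 0.46 ± 0.11 (edgeR adjusted p = 0.0397, 0.00328 and 0.00387), as were the cytoplasmic actins ACTB (0.98 ± 0.14) and ACTG1 (0.98 ± 0.14).

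**Figure D4:**
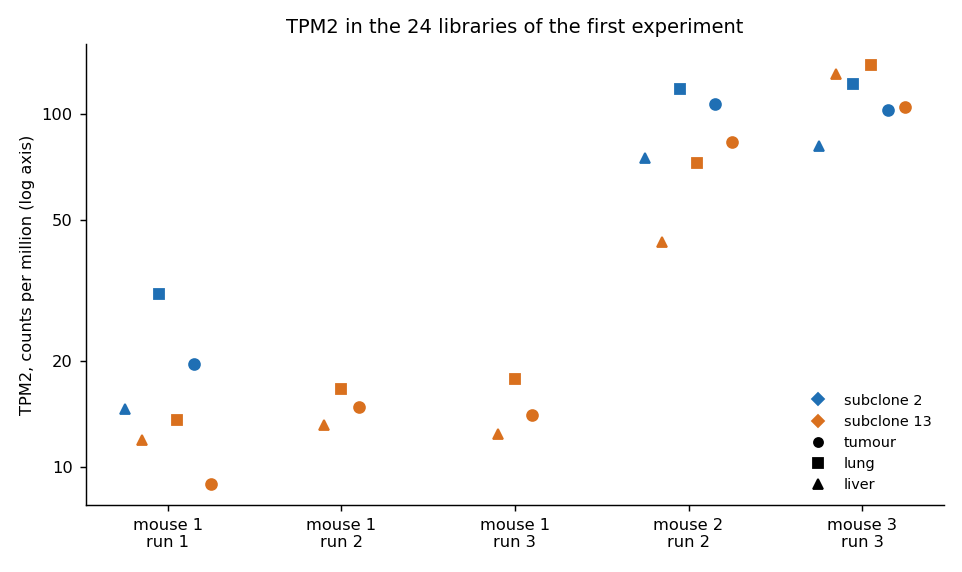
TPM2 in CPM of each library (log axis) in the 24 libraries of the first experiment, arranged by mouse and sequencing run, with colour for the subclone and shape for the organ. The 12 libraries of mouse 1 lie below all 12 libraries of mice 2 and 3, also those made in runs 2 and 3.

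Per kilobase of exon, the members fell into an abundant and a scarce set. MYL9 was the highest in all 6 groups of the first experiment, at 29.7 to 55.2 CPM per kb (group means), followed by TPM2 and CALD1, then TPM1. The spread of TPM2 over mice was so wide that its place beside CALD1 does not exceed the replicate error. TAGLN came next in 5 groups, and in the subclone 13 liver ACTG2 took that place (6.76 ± 1.18 against 5.37 ± 2.93 CPM per kb), a difference within the spread. The means of ACTG2 and ACTA2 per kilobase were 6.76 ± 1.18 and 0.897 ± 0.878 in the subclone 13 liver, and 0.0395 ± 0.0355 and 0.694 ± 0.336 in the subclone 2 liver. The order of the 2 smooth muscle actins was reversed between those livers, with no overlap in either. XIRP2 went from last place in the tumours of both subclones (0.0992 and 0.0535 CPM per kb) to above both smooth muscle actins in the subclone 2 liver (1.52 ± 0.72), where it overlapped ACTA2 and not ACTG2.

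Few other genes of the same machinery were called without a mouse term. Of 63 genes in 7 lists (other actins; other tropomyosins, calponins and transgelins; smooth muscle differentiation; non-muscle myosin and its regulation; SRF and its cofactors; actin-linked SRF targets; Xin and striated thin filament partners), 54 were tested in the first experiment. In the subclone 2 liver against tumour 0 of them were called by edgeR and their median change was -0.01, with 1 gene, MYH10, lower with mouse as a term. Between the livers of the subclones 1 of 54 was called, MYH10, a non-muscle myosin heavy chain, which was higher in subclone 13 by 3.96 ± 0.65 (edgeR adjusted p = 0.0181). With mouse as a term 2 were higher, MYH10 and ACTN1, beside 1.5% of all genes. MYH10 was at 0.504, 1.83 and 2.11 CPM in the subclone 2 liver and at 6.68, 19.9 and 45.1 CPM in the subclone 13 liver, without overlap. The list median in that comparison was 0.11. The cytoplasmic actins were abundant, ACTB at 2540 to 9132 CPM and ACTG1 at 2269 to 8430 CPM, and were not called between organs or subclones, while the striated muscle actins ACTA1 and ACTC1 were at most 1.06 and 0.717 CPM.

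NEBL, which encodes the thin filament protein nebulette, was the 1 gene of the lists higher in the subclone 13 liver than in its tumour, by 1.81 ± 0.38 (17.2 ± 3.19 against 5.0 ± 2.25 CPM, edgeR adjusted p = 0.042). With mouse as a term NEBL was also higher in the lung than in the tumour of both subclones (1.37 ± 0.35 and 1.61 ± 0.36, edgeR adjusted p = 0.038 and 0.0182). PALLD, encoding the actin cross-linker palladin, was the 1 gene called in subclone 2 lung against tumour, where it fell by 1.04 ± 0.23 (from 193 ± 48.9 to 91.8 ± 8.49 CPM, edgeR adjusted p = 0.05, just under the threshold before rounding). Of the SRF list, SRF itself was at 163 ± 43.5 CPM in the subclone 2 liver and 125 ± 24.2 CPM in the subclone 13 liver, a difference of -0.39 ± 0.24. Its cofactor MRTFA was at 37.1 ± 1.65 and 32.6 ± 11.3 CPM in these livers and MRTFB at 22.9 ± 5.23 and 27.4 ± 1.51 CPM, neither called in any comparison, and MYOCD, the cofactor of muscle lineages, was at most 0.0524 CPM. With mouse as a term 7 of the 54 were lower in subclone 13 lung than tumour, namely TAGLN2, MYH9, ELK1, FLNA, ACTN1, TLN1 and PALLD, and 1 was higher, NEBL, beside 2.89% of all genes called. In subclone 2 lung against tumour 3 were lower, ELK3, TLN1 and PALLD, and 1 higher, NEBL, beside 3.05% of all genes. In lung against liver of subclone 2 MYLK, ELK3 and TLN1 were lower and ANKRD1 was higher, beside 2.95% of all genes. In that contrast of subclone 13 TLN1 was lower, beside 0.276%. Between the lungs MYH10 and ELK3 were higher and FHL1 was lower in subclone 13, beside 1.54%.

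**Figure D5:**
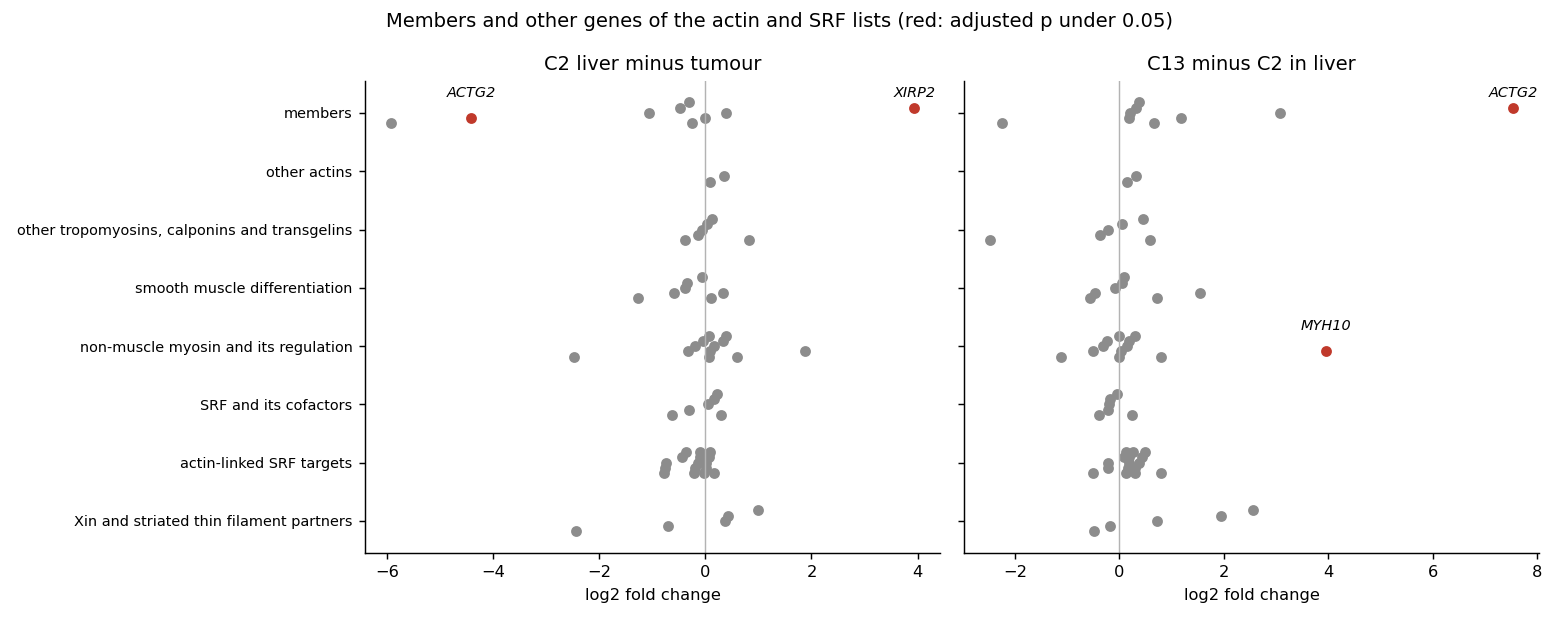
Log2 fold changes of the members and of the tested genes of 7 related lists (rows) in subclone 2 liver against tumour (left) and in the livers of subclone 13 against subclone 2 (right), with genes under an edgeR adjusted p of 0.05 in red. ACTG2 is at -4.41 on the left and 7.54 on the right, where MYH10 at 3.96 is the other called gene.

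In the retransplanted subclone 2 cells ACTG2 was higher in every sample labelled lung than in any labelled liver, without an edgeR call. It was at 7.22, 7.93 and 3.61 CPM in those labelled lung and at 1.34, 0.326 and 1.96 CPM in those labelled liver (mice 4, 5 and 6), without overlap and with the lung higher in all 3 mice. The difference was 2.39 ± 0.59 on the log2 scale (5.25-fold), with edgeR adjusted p of 0.206 without and 0.143 with mouse as a term, while DESeq2 called it (adjusted p = 0.0011). DESeq2 called 2% of 20053 genes in this comparison, where edgeR without a mouse term called 0%. Single markers of other cells were also higher in the lung samples, with COL3A1 at 8.26 to 17.9 CPM in lung and 0.385 to 0.822 CPM in liver, SFTPC at 0.883 to 3.43 and 0 to 0.0296 CPM and PTPRC at 1.11 to 2.94 and 0.303 to 0.326 CPM. The fibroblast list summed to 40.1 to 81.7 against 14.8 to 41.5 CPM and the lung epithelium list to 4.54 to 8.04 against 4.76 to 7.20 CPM, both overlapping. The leukocyte list, which holds PTPRC, overlapped as well, at 7.64 to 14.8 against 4.65 to 16.0 CPM. EdgeR called 0 of 2 genes tested in each of the fibroblast and lung epithelium lists, and with mouse as a term 1 in each, COL3A1 and SFTPC, beside 0.479% of all genes. Of 4 leukocyte genes tested 0 were called, with or without a mouse term. Other lists were higher in liver without overlap. The pericyte and smooth muscle list was at 50.7 to 56.6 CPM in lung and 63.6 to 89.7 CPM in liver. The hepatocyte list was at 14.4 to 27.4 and 33.8 to 77.3 CPM. EdgeR called 0 of the 6 and 2 genes tested in them, with or without a mouse term. The part of all these markers in the ACTG2 difference was not tested. In the first experiment the same contrast of subclone 2 was 3.0 ± 0.79. The experiments were deposited as separate tables, so their difference was not tested here. All 3 retransplanted lung samples held more ACTG2 than the highest subclone 2 sample of the first experiment (3.39 CPM). That of mouse 5 (7.93 CPM) was also above the lowest subclone 13 sample (7.61 CPM). Of the 8 members tested edgeR called 0 (0% of 17549 genes were called), while ACTG2 was below an unadjusted 0.05 and was the 1 call by DESeq2.

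No other member tested differed past the threshold between the retransplanted lung and liver samples. XIRP2 was at 4.67, 4.37 and 11.5 CPM in lung and at 8.69, 2.49 and 9.19 CPM in liver, a difference of 0.04 (95% interval -1.20 to 1.29). TPM2 was at 71.1, 92.8 and 73.2 CPM in lung and 78.1, 109 and 51.0 CPM in liver, in the range of mice 2 and 3 of the first experiment and above all samples of mouse 1. CALD1 was at 82.6 to 95.7 CPM in lung and 66.1 to 182 CPM in liver, TPM1 at 94.8 to 115 and 58.2 to 114 CPM, MYL9 at 57.2 to 72.0 and 33.4 to 68.6 CPM, TAGLN at 5.39 to 7.04 and 4.24 to 9.10 CPM and ACTA2 at 2.17 to 3.19 and 2.31 to 4.11 CPM, all overlapping. CNN1, at 0.298 to 0.482 CPM in lung and 0.173 to 0.284 CPM in liver, was too low to be tested and did not overlap. Of the 53 list genes tested edgeR called 0, with or without a mouse term.

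The genes most like a member were those with the highest Pearson correlation of log2(CPM + 0.5) over the 18 samples of the first experiment, among genes with a mean of at least 5 CPM. For ACTG2 these were RASSF2 (r = 0.884), MYH10 (0.881) and NGFR (0.881). Over the 6 retransplanted samples the same pairs had r = -0.58, -0.32 and 0.34. For XIRP2 they were SLC37A2 (0.854), SPIN4 (0.835) and DENND2D (0.828), and for TPM2 they were LTB4R (0.987), HSF4 (0.986) and PI4KAP1 (0.981). The samples share mice and runs, so these values describe the samples and carry no p.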

How the data were processed

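RNA of sorted subclone 2 and 13 cells was extracted with a Qiagen miRNeasy micro kit and made into libraries with the TruSeq v2 kit, per the labels' protocols. Per the submitters' processing notes, bcl2fastq 2.15.0.4, cutadapt, STAR, featureCounts and GRCh38 were used, in roles not given. The deposited values were read counts per gene from the authors, in a table per experiment, with 30 libraries in all. The 9 libraries of subclone 13 of mouse 1 were summed to 3 samples, 6 of them being labelled technical. Genes kept by filterByExpr (17418 and 17549) were fitted with all groups together in edgeR 4.0.16 (R 4.3.3), with TMM, the quasi-likelihood F test, Benjamini-Hochberg adjustment over all genes and a threshold of 0.05. SE is the size of the log2 fold change over the square root of F. Per the labels, samples with the same mouse number share an animal, and their deviations from group means correlated (median r = 0.359, lowest 0.152 of 45 pairs). In the retransplanted samples the median was 0.304 over 3 pairs. The edgeR fit with mouse as a replicate block is therefore given where it changes a call. DESeq2 1.42.0, RLE scaling, no filter, only the compared groups, only libraries not labelled technical and leaving out samples were alternatives. The script was tested on simulated data. Symbols were matched for 38231 of 38526 and 36000 of 36291 gene identifiers. The members and lists were chosen with earlier results of these data known, all 9 members are described, a list gene is named if it passed, the other actins and SRF with its MRTF and myocardin cofactors are named whatever they did, and genes named for the fit with mouse as a term alone, and single marker genes, were picked out after their values were seen.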

Additional observations from a re-analysis of the deposited data

Results flagged for a closer look

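In 3 cases the change between organs went one way in every mouse of subclone 2 and the other way in every mouse of subclone 13, or the test of that difference passed. For ACTG2, the liver-minus-tumour change was larger in subclone 13 by 5.90 ± 0.80 on the log2 scale in the edgeR fit with mouse as a replicate block (adjusted p = 0.00861). The lung-minus-liver change of ACTG2, averaged within mice on log2(CPM + 0.1), was -0.80 in subclone 13 and 2.29 in subclone 2, a difference of -3.09. In edgeR this difference was -3.80 ± 1.0 with an adjusted p of 1 (0.451 with mouse as a term). The lung-minus-liver change of NEBL was -0.20 in subclone 13 and 1.01 in subclone 2, a difference of -1.22, and edgeR gave -1.12 ± 0.52 with an adjusted p of 1, with and without a mouse term. Both genes were looked at among many, and NEBL was picked out after its values were seen.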

How the results depend on the processing

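With mouse as a replicate block edgeR called 1 member in place of 0 in lung against tumour of subclone 2, liver against tumour of subclone 13, lung against liver of subclone 2 and the difference of the liver-minus-tumour changes, and 2 in place of 1 between the subclones in lung and in liver. DESeq2 called 1 in the first 3 of these and in the retransplanted samples, and 2 between the subclones in lung and in liver. Of all genes DESeq2 called 1.61%, 1.44%, 1.2%, 2%, 1.12% and 1.27% there, in the order named, each above the edgeR share without a mouse term. Without a filter on low counts 1 was called in those same 3 comparisons of organs, in the retransplanted samples, between the tumours of the subclones and in the differences of the liver-minus-tumour and lung-minus-liver changes, and 2 between the subclones in lung and in liver. With only the compared groups 0 were called in subclone 2 liver against tumour and between the subclones in lung and in liver. Without mouse 1 the counts were 1 in subclone 2 liver against tumour and 0 in the lung. These counts include XIRP2 in subclone 2 liver against tumour. Leaving out 1 sample gave 0 to 2 members in subclone 2 liver against tumour and 0 in the lung of the subclones. The shares of all genes called without a filter, with only the compared groups or with samples left out are not given here. The cause of these shifts was not tested. Among values of single members 21 passed under an alternative only, 19 lost their call under one and 0 reversed. The low counts limit ACTG2 in the subclone 2 liver (18 reads in 3 samples) and CNN1 throughout. Mouse and sequencing run cannot be told apart outside the subclone 13 libraries of mouse 1, the labels do not say how the organs of the retransplanted samples are meant, and 3 samples per group leave wide intervals.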
